A study of Mus musculus with 9 samples.

Results

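Mast cell and basophil genes in mouse lung were examined as 10 genes chosen by symbol: Cpa3, Tpsb2, Tpsab1, Mcpt1, Mcpt2, Cma1, Mcpt4, Mcpt8, Fcer1a and Ms4a2. All 10 were found among the 34638 genes measured. RNA was sequenced from whole lungs of 9 wild-type C57BL/6 mice in 3 groups of 3. The PBS group was challenged through the trachea with phosphate buffered saline. The IL-33 group received 0.5 µg of recombinant mouse IL-33 per mouse by the same route on days 0, 1, 2 and 3. The IL-33+LM8 group received the same 4 IL-33 challenges, each mouse being given LM8, an inhibitor of the adaptor protein MyD88, at 10 mg/kg into the peritoneum beforehand. For the PBS and IL-33 mice the study's methods give female animals of 6 to 8 weeks and lungs taken on day 4, 24 h after the last challenge. They do not give these details for the IL-33+LM8 mice. No group received LM8 alone, so LM8 was measured only on top of IL-33.

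Mast cells are tissue-resident cells that store proteases in granules and release them when IgE on their high-affinity receptor, FcεRI, is cross-linked by antigen. They also respond to IL-33, through its receptor ST2 and MyD88. In the mouse they fall into connective tissue mast cells, which sit around airways, vessels and the pleura and hold the chymases Cma1 (mMCP-5) and Mcpt4 (mMCP-4), tryptases and carboxypeptidase A3, and mucosal mast cells, which arise from recruited progenitors during type 2 inflammation and hold the chymases Mcpt1 (mMCP-1) and Mcpt2 (mMCP-2). Basophils share FcεRI with mast cells and express their own protease, Mcpt8 (mMCP-8).

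The 5 chymase-family members lie together between positions 56178908 and 56322730 of chromosome 14 as the deposited table gives them, in the order Cma1, Mcpt1, Mcpt2, Mcpt4 and Mcpt8. Cpa3 lies on chromosome 3, the tryptases Tpsb2 and Tpsab1 on chromosome 17, Fcer1a on chromosome 1 and Ms4a2 on chromosome 19. The build of the table's positions could not be settled, because the submitters' notes name mm10 but 0 of the 10 members had the same start and end as in the GENCODE M21 annotation of that build. Sequences were therefore taken by gene symbol from RefSeq promoters of GRCm38.p6, each running from 250 bases before the start of the gene to 50 bases after it. Promoters were found for 7 of the 10 members, and none was given for Mcpt2, Tpsb2 or Tpsab1. Those printed are the promoters of Cpa3, which was the most abundant member after IL-33, of 1 chymase of the mucosal type and 1 of the connective tissue type whose promoters are near copies of each other, and of Cma1, the most abundant member in PBS lungs. Capitals mark the hexamers AGATAA or TGATAA on either strand, which are among the forms bound by GATA factors, and TATAAA on the gene's strand. None of the marked matches overlapped another.
Cpa3 (chr3:20242132-20242431, minus strand): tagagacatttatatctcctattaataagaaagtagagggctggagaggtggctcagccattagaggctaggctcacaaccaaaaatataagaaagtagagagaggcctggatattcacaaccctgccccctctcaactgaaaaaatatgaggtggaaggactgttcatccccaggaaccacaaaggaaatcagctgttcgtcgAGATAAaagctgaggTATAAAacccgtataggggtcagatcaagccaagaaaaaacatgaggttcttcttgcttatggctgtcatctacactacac
Mcpt1 (chr14:56017714-56018013, plus strand): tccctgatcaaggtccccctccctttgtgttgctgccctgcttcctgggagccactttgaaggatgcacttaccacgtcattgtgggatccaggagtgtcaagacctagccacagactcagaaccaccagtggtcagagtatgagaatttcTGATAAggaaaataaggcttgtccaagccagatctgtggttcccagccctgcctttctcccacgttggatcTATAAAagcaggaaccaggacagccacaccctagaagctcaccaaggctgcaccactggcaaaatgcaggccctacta
Mcpt4 (chr14:56062261-56062560, minus strand): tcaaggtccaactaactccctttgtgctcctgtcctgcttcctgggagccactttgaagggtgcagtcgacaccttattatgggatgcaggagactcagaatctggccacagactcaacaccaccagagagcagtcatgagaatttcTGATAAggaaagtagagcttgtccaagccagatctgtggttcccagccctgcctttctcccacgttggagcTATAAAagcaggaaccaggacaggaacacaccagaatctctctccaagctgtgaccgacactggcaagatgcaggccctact
Cma1 (chr14:55944626-55944925, minus strand): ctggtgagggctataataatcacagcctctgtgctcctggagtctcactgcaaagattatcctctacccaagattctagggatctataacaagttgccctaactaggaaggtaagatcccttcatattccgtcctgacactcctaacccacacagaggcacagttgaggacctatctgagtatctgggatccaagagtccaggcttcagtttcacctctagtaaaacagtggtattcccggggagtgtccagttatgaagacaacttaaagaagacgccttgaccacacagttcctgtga

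A GATA hexamer, AGATAA or TGATAA on either strand, was present in 5 of the 7 member promoters, against 18.6% of 32851 promoters of the same length. TATAAA was present in 4 of the 7, against 8.3%, and CACGTG or CATGTG on either strand, the E-box hexamers read by MITF, in 1 of the 7, that of Fcer1a, against 20.4%. The promoters of Mcpt1 and Mcpt4 were identical at 249 of 291 aligned bases (85.6%) and carried the hexamer at positions -99 and -103 from the start. In Cpa3 it stood at position -46. Neither Cma1 nor Mcpt8 held AGATAA or TGATAA in this window. Other forms of the GATA site were not searched for, such as AGATAG, which the Cma1 promoter holds on the other strand. These are matches of letters and not measurements of binding.

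Total counts per mouse ran from 61767006 to 73869252 in PBS, 53877663 to 66029783 in IL-33 and 59753648 to 90607218 in IL-33+LM8 lungs. At this depth the members still gave few reads, from 0 to 218 per mouse. Levels are given as FPKM, which divides reads by gene length and library size and so allows members to be set beside each other, and differences as log2 fold changes from edgeR's quasi-likelihood test on the counts. A gene was tested when its mean count over the 9 mice was at least 10, and called when its Benjamini-Hochberg adjusted p was under 0.05 and its log2 fold change at least 1 in size. 7 of the 10 members were tested. Mcpt1, Tpsab1 and Mcpt2 had mean counts of 2.56, 0.78 and 9.67 and stayed out, while Tpsb2 at 17.11 and Mcpt8 at 18.44 were the lowest that entered. Libraries PBS 3 and IL-33 1 listed a count of 0 for 20.9% to 21.7% of 1061 protein-coding genes with mean counts of 10 to 40, against 8.1% to 15.6% in the other 7 libraries, and the libraries PBS 3, IL-33 1 and IL-33+LM8 3 deviated from their groups together. Results were therefore also computed without these 3 libraries. In tissue RNA, fewer cells of a type and less RNA per cell cannot be told apart. The labelled tissue was seen in its markers, with Sftpc at a mean of 11030 FPKM and Scgb1a1 at 21499 FPKM in PBS lungs.

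**Figure D1:**
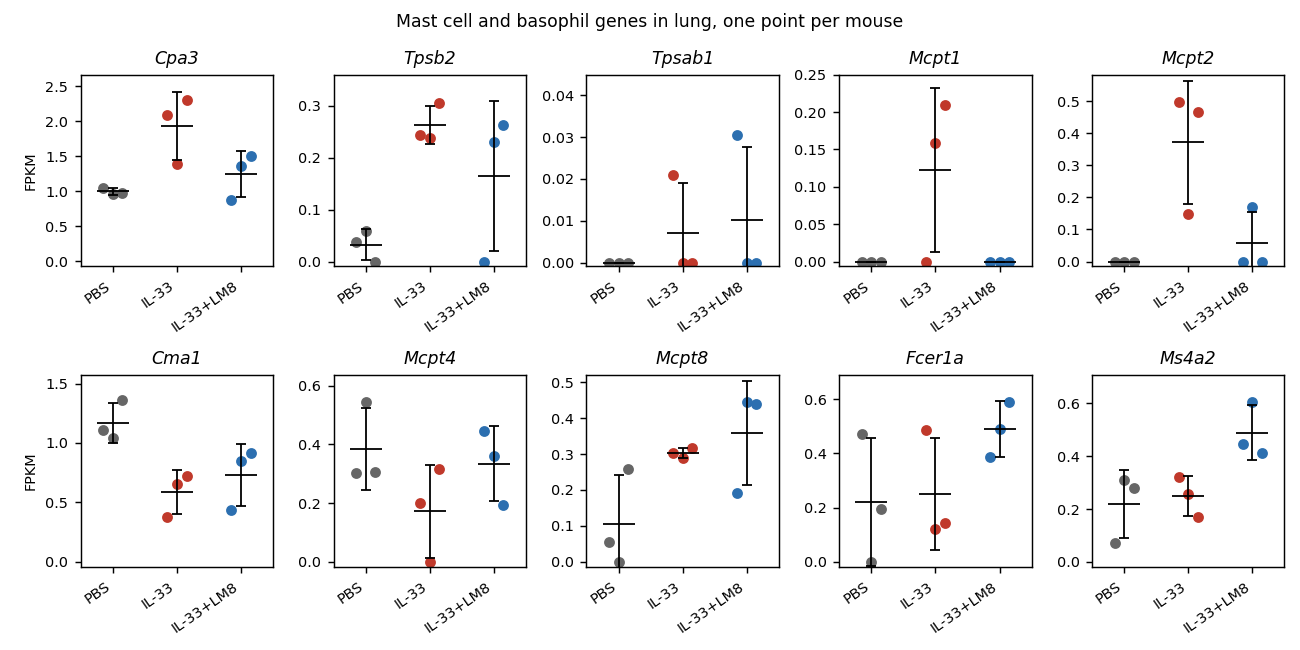
FPKM of each of the 10 members (vertical axes, each with its own scale from 0) in PBS, IL-33 and IL-33+LM8 lungs. Points are mice, dashes are group means and bars are the SD of 3 mice. Cpa3, Tpsb2, Mcpt2 and Mcpt8 were higher in every IL-33 mouse than in any PBS mouse, Cma1 was lower in every IL-33 mouse, and Fcer1a and Ms4a2 had their highest group means in IL-33+LM8 lungs.

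After IL-33, 1 of the granule proteases passed the test. The tryptase Tpsb2 rose, Cpa3 was about 1.93 times its PBS level, the mucosal chymases Mcpt1 and Mcpt2 were counted in IL-33 lungs and in no PBS lung, and the connective tissue chymase Cma1 stood at 0.502 times its PBS level without passing the test. Fcer1a and Ms4a2, the FcεRI chains largely restricted to these cells, gave no detectable difference. Of the 7 members tested, 1 was called, Tpsb2, with 9.94% of the 21519 genes tested called higher and 5.83% called lower in the same comparison. At any fold, 2 members (Tpsb2 and Cpa3) were higher at an adjusted p under 0.05, against 22.5% of all tested genes. The groups did not overlap in 4 of the 7, against 56.3% of all tested genes, a share close to that background. The members' median log2 fold change was 0.20, against -0.01 over all tested genes.

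Cpa3 encodes carboxypeptidase A3, a granule exopeptidase of both mast cell types and of basophils, and was the only member besides Cma1 with a mean above 0.5 FPKM. It was at 1.05, 0.967 and 0.979 FPKM in the 3 PBS mice, 2.09, 1.39 and 2.31 FPKM in the 3 IL-33 mice and 0.871, 1.36 and 1.5 FPKM in the 3 IL-33+LM8 mice. The PBS mice lay close together and below all IL-33 mice, whereas the IL-33+LM8 mice spanned the range from below PBS to just above the lowest IL-33 mouse. The group means were 0.999 ± 0.0458, 1.93 ± 0.481 and 1.25 ± 0.331 FPKM (SD, n = 3 mice each). The log2 fold change of IL-33 against PBS was 0.96 (SE 0.26, edgeR adjusted p = 0.0222), which passed the adjusted p but fell just short of the minimum fold. It was counted at 314 reads over the PBS mice and 549 over the IL-33 mice, the deepest support of any member. Across the 15 alternatives the adjusted p of Cpa3 ran from 0.00595 to 0.131, and was under 0.05 in 9. Without the IL-33 2 mouse, the lowest of its group, the log2 fold change was 1.16 and Cpa3 was called (edgeR adjusted p = 0.00922).

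Tpsb2 encodes a tetrameric tryptase (mMCP-6), bound to heparin in the granules of connective tissue mast cells. Its FPKM was 0.0383, 0.0591 and 0 in the PBS mice, 0.245, 0.239 and 0.304 in the IL-33 mice and 0, 0.230 and 0.264 in the IL-33+LM8 mice. All IL-33 mice were above all PBS mice, and among the IL-33+LM8 mice 1 had no read while the other two were near the IL-33 level. The counts behind these values were 4, 7 and 0 in PBS against 27, 24 and 28 in IL-33 lungs. The log2 fold change was 2.91 (SE 0.97, edgeR adjusted p = 0.0471), so Tpsb2 rose, from a mean of 0.0325 ± 0.0300 to 0.263 ± 0.0363 FPKM (SD, n = 3 each). This call lay close to the threshold. It was lost on leaving out PBS 1, PBS 2 or any of the 3 IL-33 mice (log2 fold changes of 2.77 to 3.76, edgeR adjusted p of 0.0509 to 0.117), with replicate number as a block (3.20, edgeR adjusted p = 0.107) and without the 3 libraries that stood apart (2.36, edgeR adjusted p = 0.0628).

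Tpsab1, the neighbouring tryptase (mMCP-7), was close to absent. It was counted 3 times in IL-33 1 and 4 times in IL-33+LM8 1, and 0 times in the other 7 mice, and no fold change was drawn from these. The C57BL/6 strain is known to carry a splice-site defect in this gene, which leaves little stable transcript. The 2 tryptase genes share 9 of 1617 31-base words of the Tpsb2 transcripts (0.6%), so that reads could hardly be exchanged between them.

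The mucosal chymases were listed at 0 in every PBS mouse. Mcpt2, a chymase-family protease that marks mucosal mast cells, had counts of 37, 10 and 28 in the IL-33 mice (0.498, 0.149 and 0.466 FPKM) and of 0, 12 and 0 in the IL-33+LM8 mice. Every IL-33 mouse thus held Mcpt2 reads, while only 1 IL-33+LM8 mouse did. Set against a floor of 3 counts per library in the PBS mice, the IL-33 mean of Mcpt2 was 9.08 times that floor. This ratio depends on the floor chosen and is not a bound. A listed 0 can stand beside many reads in the same group, as for Fcer1a with counts of 31, 0 and 15 in the PBS mice. With no filter on low counts, edgeR put it past the threshold (adjusted p = 0.00771), and it was then the only member called, since Tpsb2 had an adjusted p of 0.0827 in that fit. Mcpt1, the β-chymase that is shed into blood in mucosal mast cell responses, had counts of 0, 11 and 12 in the IL-33 mice and 0 in all 6 others. It was present in 2 of 3 IL-33 mice, with a group mean 2.96 times the same floor, but did not pass without the filter (edgeR adjusted p = 0.124). The IL-33 1 mouse had the highest Mcpt2 count and no Mcpt1 count, and is 1 of the libraries with many zeros among low genes, a feature whose part in this 0 was not tested. Mcpt1 and Mcpt2 share 34 of 984 31-base words of Mcpt1 (3.5%), and how the authors assigned reads that match both is not stated.

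The connective tissue chymases stood lower, if anything, after IL-33. Cma1, the mouse ortholog of human mast cell chymase, which in rodents has elastase-like specificity, was at 1.11, 1.04 and 1.36 FPKM in the PBS mice, 0.376, 0.659 and 0.726 FPKM in the IL-33 mice and 0.435, 0.845 and 0.912 FPKM in the IL-33+LM8 mice. It was thus the most abundant member in PBS lungs, and every mouse of both IL-33 groups was below every PBS mouse. The log2 fold change of IL-33 against PBS was -0.98 (SE 0.35, edgeR adjusted p = 0.0600), which missed the threshold, and the adjusted p ran from 0.0150 to 0.315 over 15 alternatives. Mcpt4, a chymotrypsin-like chymase, had 0.301, 0.545 and 0.306 FPKM in PBS, 0.201, 0 and 0.315 FPKM in IL-33 and 0.445, 0.362 and 0.194 FPKM in IL-33+LM8 lungs. Its groups overlapped, and the log2 fold change of -1.11 had an SE of 1.07 (edgeR adjusted p = 0.454), with values from -0.53 without IL-33 2 to -1.84 without IL-33 3. Of the Mcpt4 words of 31 bases, 110 of 1078 (10.2%) occur also in Cma2, so its low counts are less certain.

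Genes of resident lung cells were lower in the same comparison as Cma1. Of 7 markers of lung epithelium and endothelium, 3 fell, with log2 fold changes of -1.3 for Hopx of alveolar type 1 cells, -1.28 for Scgb1a1 of club cells and -1.13 for Sftpc of alveolar type 2 cells, and the list had a median of -0.92. Their summed level was 33341 to 36153 FPKM in PBS, 14543 to 15781 FPKM in IL-33 and 27520 to 29750 FPKM in IL-33+LM8 lungs. Upk3b, a gene of the mesothelium that covers the pleura where connective tissue mast cells sit, fell by 1.99 (edgeR adjusted p = 0.0121), from 32.3, 14.5 and 22.2 FPKM in the PBS mice to 5.39, 9.28 and 2.69 FPKM in the IL-33 mice. It was the 1 gene that fell among 9 tested of the large airway, cartilage and mesothelium list, whose median log2 fold change was 0.37. The list's sum ran from 81.1 to 111 FPKM in PBS, 64.6 to 79.7 FPKM in IL-33 and 83.1 to 94.5 FPKM in IL-33+LM8 lungs. Msln, also of the mesothelium, was not called and its groups overlapped. It was at 29.9, 12 and 22.4 FPKM in the PBS mice and 11.3, 16.9 and 6.01 FPKM in the IL-33 mice. The part of dilution or of the tissue sampled in the Cma1 value was not tested.

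The make-up of the proteases can be read within each mouse. Mcpt1 and Mcpt2 made up 0% of the summed FPKM of the 4 mucosal and connective tissue chymases in each PBS mouse, 46.3%, 31.9% and 39.3% in the IL-33 mice and 0%, 12.4% and 0% in the IL-33+LM8 mice. The ratio of Cpa3 to Cma1 FPKM was 0.95, 0.93 and 0.72 in PBS, 5.57, 2.11 and 3.18 in IL-33 and 2.00, 1.61 and 1.64 in IL-33+LM8 lungs. On both measures the IL-33 mice lay above all others, and for the ratio the IL-33+LM8 mice also lay between the other groups without overlap. Cpa3 took 42.6% to 46.6% of the summed FPKM of all 10 members in IL-33 mice, against 29.0% to 34.0% in PBS and 30.2% to 34.8% in IL-33+LM8 mice. These shares divide small counts by small counts and are given as descriptions, with no test.

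**Figure D2:**
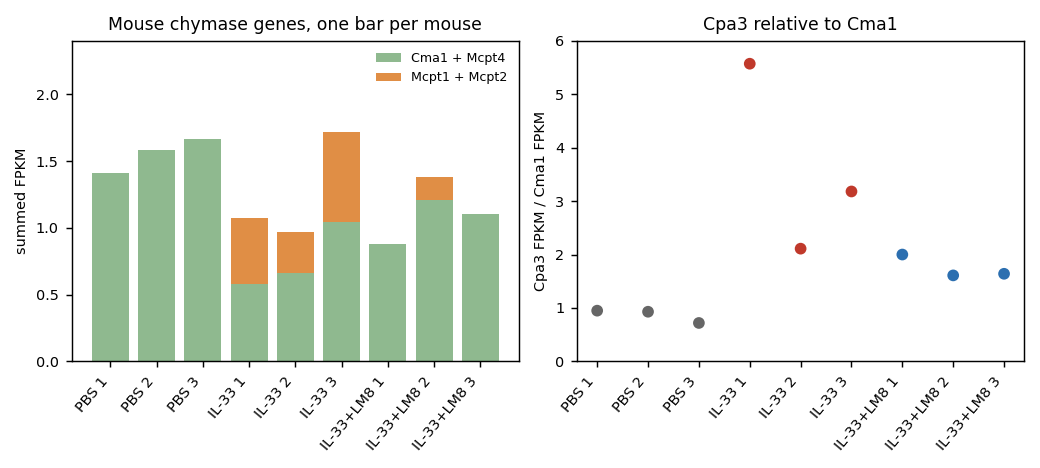
Left, FPKM of the connective tissue chymases (Cma1 + Mcpt4, green) and of the mucosal chymases (Mcpt1 + Mcpt2, orange) stacked for each of the 9 mice. Right, Cpa3 FPKM divided by Cma1 FPKM in each mouse, coloured by group. Mucosal chymases were seen in IL-33 1, 2 and 3 and, of the other 6 mice, in IL-33+LM8 2, and the ratio was below 1 in all PBS mice and from 2.11 to 5.57 in the IL-33 mice.

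Mcpt8, a granzyme-like protease and the usual marker of mouse basophils, was at 0.0545, 0 and 0.259 FPKM in the PBS mice, 0.303, 0.290 and 0.318 FPKM in the IL-33 mice and 0.190, 0.444 and 0.440 FPKM in the IL-33+LM8 mice. The IL-33 mice lay close together above the PBS mice, the highest of which came near them. The log2 fold change of IL-33 against PBS was 1.5, but with an SE of 1.08 it did not pass (edgeR adjusted p = 0.315), and it was 0.93 without PBS 2 and 3.25 without PBS 3 (edgeR adjusted p = 0.391 and 0.0617). The IL-33+LM8 mean was 0.358 ± 0.145 FPKM against 0.304 ± 0.0138 FPKM in IL-33 lungs (SD, n = 3 each). Prss34, the basophil tryptase mMCP-11, is a gene of the basophil list and had a log2 fold change of 2.03 (SE 1.05, edgeR adjusted p = 0.165; 3.18 without PBS 1), with 0.210, 0 and 0.0769 FPKM in PBS, 0.279, 0.418 and 0.512 FPKM in IL-33 and 0.348, 0.427 and 0.325 FPKM in IL-33+LM8 lungs. For both basophil proteases all IL-33 mice were above all PBS mice, where 56.3% of all tested genes did not overlap in either direction. Neither passed the edgeR test at this depth. By limma on log2(FPKM + 0.1), Prss34 was called (1.48, limma adjusted p = 0.0328) and Mcpt8 was not (1.19, limma adjusted p = 0.0793).

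Fcer1a encodes the IgE-binding α chain of FcεRI, and Ms4a2 its signal-amplifying β chain. Fcer1a was at 0.470, 0 and 0.195 FPKM in the PBS mice, 0.487, 0.121 and 0.142 FPKM in the IL-33 mice and 0.387, 0.490 and 0.591 FPKM in the IL-33+LM8 mice. Ms4a2 was at 0.0727, 0.310 and 0.278 FPKM in PBS, 0.323, 0.257 and 0.170 FPKM in IL-33 and 0.444, 0.607 and 0.414 FPKM in IL-33+LM8 lungs. The PBS and IL-33 mice overlapped for both chains, and the IL-33+LM8 mice held the highest values, without overlap for Ms4a2. The log2 fold changes of IL-33 against PBS were 0.20 (SE 1.22) for Fcer1a and 0.19 (SE 0.57) for Ms4a2, with edgeR adjusted p of 0.914 and 0.827. Both estimates changed sign when single mice were left out, so no direction is given.

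Adding LM8 to IL-33 gave no called member. Relative to IL-33 alone, the estimates were below 0 for Cpa3 and Tpsb2 and above 0 for Ms4a2, Fcer1a, Mcpt4, Cma1 and Mcpt8, but none passed. Of the 7 tested, 0 were called by edgeR and 0 by DESeq2 and limma, while 1 (Ms4a2) had an unadjusted p under 0.05. Over all 21520 genes tested, 1.32% were called higher and 3.48% lower. The groups did not overlap for 1 of the 7 members, Ms4a2, against 38.2% of all tested genes.

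Among the single members, Ms4a2 came nearest to a difference, with a log2 fold change of 0.96 (SE 0.34, edgeR adjusted p = 0.0951), from 0.25 ± 0.0766 to 0.488 ± 0.104 FPKM (SD, n = 3 each). The adjusted p lay between 0.0674 and 0.224 over its 14 alternatives. Fcer1a had the same estimate of 0.96 with a larger error (SE 0.63, edgeR adjusted p = 0.356), and it was 1.88 without IL-33 1 (edgeR adjusted p = 0.08), whose value lay among those of the IL-33+LM8 mice. For Cpa3 the log2 fold change was -0.62 (SE 0.30, edgeR adjusted p = 0.208) and for Tpsb2 it was -0.65 (SE 1.06, edgeR adjusted p = 0.741). Cma1 (0.32, SE 0.43), Mcpt4 (0.93, SE 1.08) and Mcpt8 (0.26, SE 0.51) did not differ detectably either. Of the untested chymases, Mcpt2 was found in 1 of 3 IL-33+LM8 mice against 3 of 3 IL-33 mice and Mcpt1 in 0 of 3 against 2 of 3. With no filter on low counts their edgeR adjusted p were 0.343 and 0.181.

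Against PBS, the IL-33+LM8 lungs also gave 0 called members of 7, with 5.2% of the 21518 genes tested called higher and 1.67% lower. None had an unadjusted p under 0.05, and the lowest adjusted p was 0.158, for Ms4a2, by edgeR. No member was called by DESeq2 or limma. Ms4a2 (higher) and Cma1 (lower) were the 2 of 7 members whose groups did not overlap, against 42.2% of all tested genes. Their log2 fold changes were 1.17 (SE 0.52) and -0.64 (SE 0.36). Those of Tpsb2 (2.28, SE 1.47), Mcpt8 (1.78, SE 1.09) and Fcer1a (1.18, SE 1.07) were of similar or larger size with wide errors, and Cpa3 was at 0.35 (SE 0.28). This comparison shares its PBS mice with the first and its IL-33+LM8 mice with the second, so that the 3 sets of values are not independent of each other. For a single member the smallest p that an exact permutation test can reach with groups of 3 is 0.1.

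**Figure D3:**
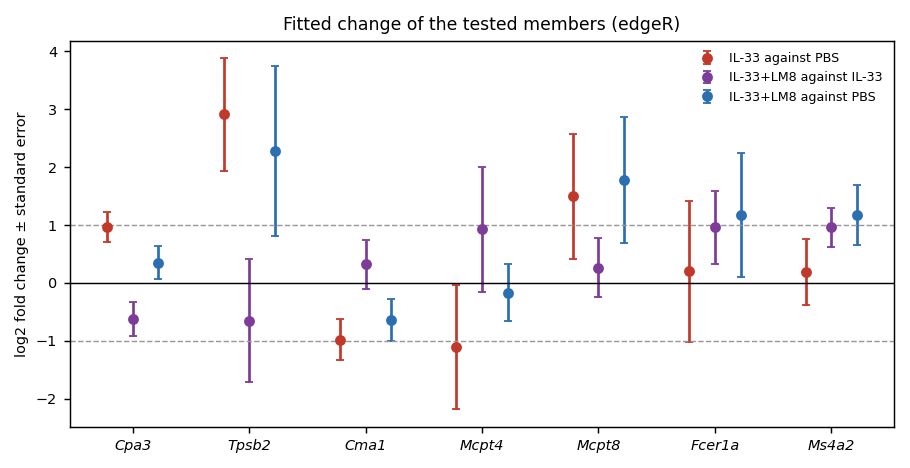
Log2 fold change (vertical axis) for the 7 tested members in the 3 comparisons, from edgeR on 6 mice each. Bars are standard errors derived from the F statistic of the test. Dashed lines mark the minimum fold of 1 on the log2 scale. Of the 21 values, only that of Tpsb2 in IL-33 against PBS was called, and in that comparison the errors of Tpsb2, Mcpt4, Mcpt8 and Fcer1a were 0.97 to 1.22, against 0.26 for Cpa3 and 0.35 for Cma1.

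Other genes of mast cells and basophils were read from 7 lists, of which 76 genes were tested. After IL-33, 40 of the 76 rose and 4 fell, beside 9.94% and 5.83% of all tested genes. The lists hold many genes that other leukocytes express. Among 13 tested genes of mast cell identity, 9 rose and 3 fell. Alox15, a lipoxygenase, rose by 7.03 on the log2 scale, Cd200r3, an activating receptor of mast cells and basophils, by 2.62 (0.0635 ± 0.0150 to 0.400 ± 0.0320 FPKM) and Adora3, an adenosine receptor that enhances degranulation, by 2.59 (SD, n = 3 each). Gata1, a transcription factor of mast cells and eosinophils, rose by 2.42 (SE 0.38). The 3 that fell were Gata2 (-1.18), Maob (-1.10) and Slc29a1 (-1.01, and -0.99 without PBS 2), and Kit, the receptor for stem cell factor, had a log2 fold change of -0.58 (SE 0.06) under the minimum fold. Kit was at 22.7 ± 1.09 FPKM in PBS and 15 ± 0.809 FPKM in IL-33 lungs (SD, n = 3), far above the 0.999 FPKM of Cpa3, and both Kit and Gata2 are also expressed by lung endothelium. Of the connective tissue receptor Mrgprb1 there were counts of 0 in the PBS mice, 4, 8 and 0 in the IL-33 mice and 0, 16 and 4 in the IL-33+LM8 mice.

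The genes that make mast cell mediators gave 6 of 14 that rose and none that fell, by edgeR with an adjusted p under 0.05 and the minimum fold. Tph1, the first enzyme of serotonin synthesis in mouse mast cells, had counts of 0, 5 and 0 in PBS mice, 80, 84 and 86 in IL-33 mice and 60, 64 and 62 in IL-33+LM8 mice. It rose by 5.67 (SE 1.09, edgeR adjusted p = 0.00501), and its groups did not overlap. The size of this fold rests on the 5 reads of PBS 2: without that mouse the PBS group is at 0 and the fitted value, then set by the prior count, was 9.47, and on the log2(FPKM + 0.1) scale it was 1.59 (limma adjusted p = 0.00107). Hdc, which makes histamine, rose by 1.73, from 8.78 ± 0.468 to 29.0 ± 3.09 FPKM, and Alox5ap of leukotriene synthesis by 1.75, from 15.6 ± 0.828 to 52.1 ± 0.647 FPKM (SD, n = 3 each). Hdc, which macrophages and neutrophils also express, was thus far above Cpa3 already in PBS lungs.

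Of 17 genes of FcεRI signalling, many of which other leukocytes share, 11 rose and 6 were not called in IL-33 lungs, with a median log2 fold change of 1.72. Among those not called, Lyn, the kinase that starts the signal, had 0.35 (SE 0.06), Fyn 0.29 (SE 0.12) and the phospholipase gene Plcg1 -0.66 (SE 0.08). The common γ chain Fcer1g, also a chain of Fcγ receptors on myeloid cells, was at 14.0, 20.2 and 15.8 FPKM in PBS mice and 49.9, 56.2 and 51.6 FPKM in IL-33 mice, a rise of 1.67 (SE 0.13). The inhibitory Fc receptor Fcgr2b rose by 3.10, the low-affinity IgG receptor Fcgr3 by 2.72 and the adaptor Lat2 by 2.22. Of the basophil list, 5 of 14 rose and 1 (Gata2) fell. Ccr3, the eotaxin receptor, rose by 6.61, Csf2rb2 by 2.85 and Cd200r3 by 2.62, while Il4 had a log2 fold change of 0.50 (SE 0.33, edgeR adjusted p = 0.274). Of the 8 basophil genes not called, Il18r1 (-0.64, SE 0.14), Itga2 (-0.54, SE 0.09) and Ptgdr2 (-0.40, SE 0.37) had estimates below 0, and the rest above 0.

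Growth and homing factors moved as follows. Of 11 tested growth and activating factors, 5 rose, led by Il13 (7.16, and 10.66 without PBS 2), the IL-9 receptor gene Il9r (4.40) and the IL-33 receptor gene Il1rl1 (3.90), while Kitl, stem cell factor, had -0.87 (SE 0.06). Of 8 tested genes of progenitor homing, 6 rose: among them Ccl2 by 3.88, Cxcr2 by 2.87, the CCL2 receptor gene Ccr2 by 2.72 and the integrin subunit Itgb7 by 2.38. Of 15 listed relatives of the granule proteases, 7 were measured and 3 tested. The carboxypeptidase Cpb1 fell by 1.37 (SE 0.40, edgeR adjusted p = 0.0304), from 0.419 ± 0.0781 to 0.160 ± 0.0615 FPKM (SD, n = 3), a call that was lost on leaving out PBS 1, PBS 3, IL-33 1 or IL-33 2 (edgeR adjusted p of 0.0537 to 0.0869).

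With LM8 added, 9 of the 76 list genes fell and 1 rose relative to IL-33 alone, beside 3.48% and 1.32% of all tested genes. Those that fell were led by Ccr3 (-2.99), Alox15 (-1.91), Il9r (-1.79), Cd200r3 (-1.51), Il1rl1 (-1.37) and Gata1 (-1.26). Cd200r3 was at 0.409, 0.365 and 0.427 FPKM in the IL-33 mice and 0.0676, 0.141 and 0.196 FPKM in the IL-33+LM8 mice, without overlap (edgeR adjusted p = 0.0284), and this call was lost without any one of the 3 IL-33 mice or without IL-33+LM8 2 (edgeR adjusted p of 0.0559 to 0.0899). The call of Gata1 (edgeR adjusted p = 0.00764) was lost without the 3 libraries that stood apart (0.0692 there, by edgeR). Of FcεRI signalling, Fcgr2b passed the minimum fold (-1.13), while Lat2 (-0.99, and -1.01 to -1.04 without IL-33 1, IL-33+LM8 1 or IL-33+LM8 2), Fcgr3 (-0.88), Btk (-0.85) and Syk (-0.7) had edgeR adjusted p of 0.000361 to 0.00116 below it, and the list's median was -0.59. Of mediator synthesis 0 of 14 were called, Hdc having -0.73 (SE 0.10). Cxcr2, which neutrophils express strongly, was the 1 that rose (1.31). Kit had 0.57 (SE 0.06) and Prss34 -0.13 (SE 0.41). Against PBS, 29 of the 76 were higher and 1 (Cpb1) lower in IL-33+LM8 lungs, beside 5.2% and 1.67% of all tested genes, the call of Cpb1 being lost without any one of the 6 mice (edgeR adjusted p of 0.0533 to 0.121). Those higher included 5 of 13 for mast cell identity, 10 of 17 for FcεRI signalling, 3 of 14 for mediator synthesis, 4 of 14 for basophils, 3 of 11 for growth factors and 5 of 8 for homing.

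**Figure D4:**
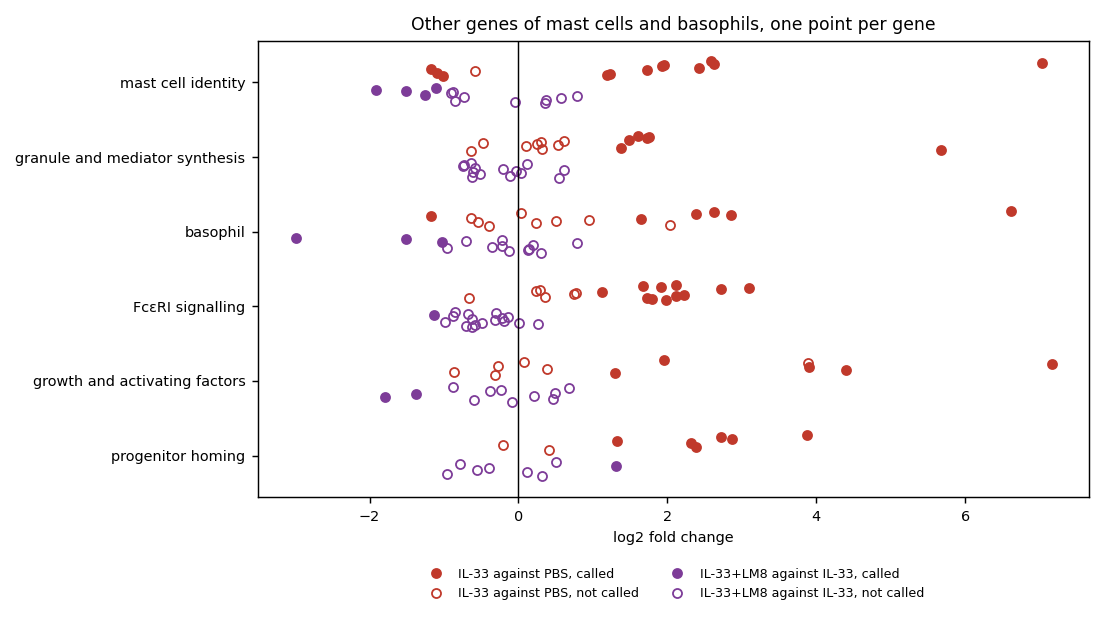
Log2 fold changes (horizontal axis) of the tested genes in 6 lists of mast cell and basophil biology, for IL-33 against PBS (red) and IL-33+LM8 against IL-33 (purple). Each point is a gene, filled where it was called. FcεRI signalling genes lie mostly to the right of 0 in red, with 11 of 17 called, and 1 of 17 called in purple.

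Markers of other leukocytes also rose after IL-33, and several list genes are among them. Of 8 eosinophil markers, 7 rose after IL-33 and all 8 fell with LM8, the summed level being 102 to 115 FPKM in PBS, 591 to 647 FPKM in IL-33 and 142 to 178 FPKM in IL-33+LM8 lungs. Ear2, the most abundant, made up most of this sum, at 83.2 ± 4.59 FPKM in PBS, 553 ± 31.4 FPKM in IL-33 and 145 ± 17.3 FPKM in IL-33+LM8 lungs (SD, n = 3). Ear1, the 1 of the 8 that did not rise, was at 19.4 ± 2.61 FPKM in PBS lungs. Epx, the defining peroxidase, was at 0 in every PBS mouse, and Prg2 was at 0.176 ± 0.0583 FPKM there. The PBS sum is thus mostly Ear2 and Ear1, and is not read as a level of eosinophils. Ccr3 stands in both lists, and Alox15, Adora3 and Gata1 are known to be expressed by eosinophils too. Markers of neutrophils summed to 26.3 to 32.9 FPKM in PBS, 188 to 211 FPKM in IL-33 and 871 to 1019 FPKM in IL-33+LM8 lungs, where 8 of 8 tested were higher than in PBS. Unlike the eosinophil markers and most called list genes, 5 of these 8 rose and 0 fell when LM8 was added to IL-33. Those of type 2 innate lymphoid and Th2 cells, with 8 of 9 higher after IL-33, summed to 13.5 to 14.5, 78.9 to 96.4 and 39.8 to 42.6 FPKM, and those of monocyte-derived dendritic cells, with 6 of 10 higher, to 69.5 to 73.4, 256 to 265 and 188 to 221 FPKM in the same order. The 10 members together summed to 2.92 to 3.38 FPKM in PBS, 3.26 to 4.96 FPKM in IL-33 and 2.80 to 4.51 FPKM in IL-33+LM8 lungs. The part of other leukocytes in the list genes was not tested.

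The genes whose pattern over the 9 mice was most like that of Cpa3, by Pearson's r of log2(FPKM + 0.1), were Zfp987 (0.986), 4931406G06Rik (0.970), Ighv1-84 (0.967), Gm31597 (0.964) and Areg (0.959), which encodes amphiregulin. Among the other 6 tested members, r with Cpa3 was 0.87 for Tpsb2, followed by Mcpt8 (0.56), Fcer1a (0.17), Ms4a2 (-0.07), Mcpt4 (-0.33) and Cma1 (-0.40). For the untested members it was 0.89 for Mcpt2, 0.54 for Mcpt1 and -0.07 for Tpsab1, where most mice were at 0. Mcpt8 was most like Syne4 (0.967), Coa8 (0.958), Psmd3 (0.950), Supv3l1 (0.944) and Gm9531 (0.941), none of them a member, and 1 PBS mouse without Mcpt8 reads weighs in these values. The 9 points fall into 3 groups and were picked as the highest of all tested genes, so the values describe these libraries and carry no test.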

How the data were processed

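The authors deposited 1 table with a read count and an FPKM value per gene and mouse. The deposited counts were used for tests and the authors' FPKM values for levels. Per the labels, the submitters' processing notes name mm10, HISAT2 2.0, StringTie 1.3.0 and Bowtie 0.12.2, with no roles. How read pairs, strands and shared reads were counted is not given in the sources used here. Cpa3 and Mcpt8 overlap microRNA genes in GENCODE M21.

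edgeR 4.0.16 (R 4.3.3; TMM, glmQLFit, glmQLFTest) was fitted on the 6 mice of each comparison, over genes with a mean count of at least 10 over 9 mice, and Benjamini-Hochberg adjusted over all of them. Alternatives were median-of-ratios size factors, DESeq2 1.42.0, limma 3.58.1 on log2(FPKM + 1) and log2(FPKM + 0.1), no filter, a mean FPKM of at least 0.5, all 9 mice, no minimum fold, a replicate block and leaving out each mouse. The scripts were tested on simulated data. Replicate numbers come from the sample titles. Same-numbered mice of IL-33+LM8 and PBS deviated together (r of 0.27 to 0.59), while those of the other comparisons did not (-0.44 to 0.36 and -0.36 to 0.22). The 0.59 was that of PBS 3 and IL-33+LM8 3, and the differently numbered PBS 3 and IL-33 1 reached 0.63. These values therefore do not settle whether mice were paired, which the labels do not state. The main fits were unpaired. glmQLFTest returns no standard error. Each SE given with an edgeR value is the size of the log2 fold change divided by the square root of the F statistic. No pair of replicates agreed within counting noise (lowest chi-square per degree of freedom 21.9). The named genes were all members, from each list the called genes with the largest fold (at most 3 per direction), and the 5 genes most correlated with Cpa3 and Mcpt8; Kit, Kitl, Il4, Prss34, Mrgprb1, Gata1, Hdc, Fcer1g, Lyn, Fyn, Plcg1, Btk, Syk, Ctsg and Gzmb were named after their values were seen. Itgb7, Elane, Il18r1, Itga2, Ptgdr2 and Msln were also named outside this rule. Members and lists were chosen with earlier results of these data known.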

Additional observations from a re-analysis of the deposited data

How the results depend on the processing

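For IL-33 against PBS, 1 member was called (Tpsb2). It was 1 with DESeq2, with median-of-ratios size factors and with limma on log2(FPKM + 0.1), and also 1, but Mcpt2, with no filter on low counts. The number was 0 with a mean FPKM of at least 0.5, where only 2 members were tested, 0 in the fit of all 9 mice, 0 with limma on log2(FPKM + 1), whose larger pseudocount shrinks low genes, 0 with the replicate block and 0 without PBS 3, IL-33 1 and IL-33+LM8 3 together, an alternative chosen after seeing the data. It was 2 with no minimum fold (Cpa3 and Tpsb2). Leaving out single mice gave 0 to 1: 0 without PBS 1, PBS 2, IL-33 1 or IL-33 3, Tpsb2 without PBS 3 and Cpa3 without IL-33 2. In the other comparisons 0 members were called under every alternative. The replicate block changed no other call of a member. The cause of these changes was not tested beyond what the settings themselves alter.

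Among single members, 281 alternative values stayed on the same side of the threshold with the same sign, 10 became weaker, 1 stronger and 8 reversed. For IL-33 against PBS, Fcer1a turned to -0.39 without PBS 2, -0.72 without IL-33 1 and -0.81 without the 3 libraries, and Ms4a2 to -0.23 without PBS 1 and -0.04 without IL-33 1, single mice left out giving -0.72 to 1.35 and -0.23 to 0.5. For IL-33+LM8 against IL-33, Cma1 turned to -0.09 without the 3 libraries. In the same comparison Prss34, a list gene not counted among these 8, turned to 0.09 without IL-33 3 (lowest -0.33, without IL-33 1). For IL-33+LM8 against PBS, Mcpt4 turned to 0.14 without PBS 2 and 0.09 without IL-33+LM8 3 (lowest -0.43). Of the 76 tested list genes, 44, 10 and 30 were called in the 3 comparisons, and with limma on log2(FPKM + 1) the last 2 numbers were 6 and 19. Over all genes, limma on log2(FPKM + 1) called 1739 in place of 3394, 437 in place of 1033 and 587 in place of 1478, and without the 3 libraries 640 in place of 1033. Low counts limit all members but Cpa3, Cma1 and Ms4a2.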

Other observations

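Ctsg, which encodes cathepsin G, a granule protease of neutrophils and connective tissue mast cells, was listed at 0 in all 3 PBS mice and all 3 IL-33 mice. In the 3 IL-33+LM8 mice it had counts of 7, 16 and 16, or 0.103, 0.228 and 0.164 FPKM. Mpo, the neutrophil myeloperoxidase, had counts of 0 in the PBS mice, 0, 16 and 0 in the IL-33 mice and 36, 57 and 55 in the IL-33+LM8 mice, and Elane, neutrophil elastase, had 8, 6 and 40 in the IL-33+LM8 mice. The source of the Ctsg reads was not tested. Ctsg was below the minimum count and was named after its values were seen.

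The granzyme gene Gzmb, a relative of the chymases on the same chromosome that natural killer and T cells express, was at 6.16 ± 0.639 FPKM in PBS, 3.14 ± 0.436 FPKM in IL-33 and 5.19 ± 1.22 FPKM in IL-33+LM8 lungs (SD, n = 3 each). Its log2 fold change of IL-33 against PBS was -0.96 (SE 0.15, edgeR adjusted p = 0.00212), under the minimum fold, which it passed without PBS 1 (-1.05), IL-33 1 (-1.08) or the 3 libraries that stood apart (-1.06). It too was named after its values were seen.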
